A study of Mus musculus with 12 samples.

Results

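The genes described here build and load MHC class I in mouse B cells: the heavy chains H2-K1, H2-D1, H2-T22, H2-T23 and H2-T24, the light chain B2m, the peptide transporter subunits Tap1 and Tap2, the loading factor Tapbp and the transactivator Nlrc5. They were chosen by name, as the 10 rows of the deposited count table that carry their Entrez identifiers, out of 27179 rows, and all 10 were among the 12750 genes that were tested. RNA was taken from splenic B cells of male C57BL/6 mice on a Pep3b background, 6 to 12 weeks of age. Naive cells received no treatment and were sorted as IgM+ IgD high B cells. Undivided CD69+ cells were sorted 3, 10 and 33 h after culture with 25 μg/ml lipopolysaccharide (LPS), and on day 4 of LPS culture expanded B cells (CD22+ CD138-) were separated from plasmablasts (CD22- CD138+). The labels name no transgene or deletion for any group, and each of the 6 stages had 2 libraries, described as biological duplicates. Whether 1 mouse or several gave each library is not given in the sources used here, so p-values measure the spread between these libraries.

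MHC class I molecules show peptides from inside the cell to CD8+ T cells. Proteasomes cut the peptides, the TAP transporter carries them into the endoplasmic reticulum, and tapasin, the product of Tapbp, holds an empty heavy chain with beta-2 microglobulin beside TAP until a peptide fits. H2-K1 and H2-D1 encode the classical heavy chains, whereas H2-T22, H2-T23 and H2-T24 encode nonclassical ones: the H2-T23 product is Qa-1, and the H2-T22 product is a ligand of some gamma delta T cells. Nlrc5 is drawn to class I promoters through the factors bound to an X box and Y box, in the way that Ciita is at class II promoters, and these promoters also carry NF-kappaB and interferon response elements.

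RefSeq (GRCm38.p6, the coordinates of mm10) gave a promoter window for 7 of the 10 genes, from 250 bases before to 50 after the start. Nlrc5, Tap2 and H2-T24 had none. Each window was searched on both strands for an interferon response element core (GAAANNGAA), a kappaB-like core (GGGNNTTCC), a Y box core (GATTGG) and a cyclic AMP response element core (TGACG). The stretches that hold the matches upstream of or near the start are printed 5′ to 3′ on the strand of the gene, with matches in capitals. Whether these letters bear on expression was not tested. For H2-K1 the first of 2 listed starts was used, and its stretch ends 19 bases past that start. H2-K1 lies at chr17:34000329-34000463 (- strand), H2-D1 at chr17:35262918-35263051 (+), B2m at chr2:122147543-122147643 (+), H2-T23 at chr17:36032743-36032829 (-), H2-T22 at chr17:36042755-36042937 (-) and Tap1 at chr17:34187329-34187479 (+).
H2-K1: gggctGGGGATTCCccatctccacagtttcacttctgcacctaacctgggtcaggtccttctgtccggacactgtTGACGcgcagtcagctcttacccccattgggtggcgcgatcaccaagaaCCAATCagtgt
H2-D1: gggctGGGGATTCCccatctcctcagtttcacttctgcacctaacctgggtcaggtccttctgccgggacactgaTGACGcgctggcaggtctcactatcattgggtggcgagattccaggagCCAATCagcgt
B2m: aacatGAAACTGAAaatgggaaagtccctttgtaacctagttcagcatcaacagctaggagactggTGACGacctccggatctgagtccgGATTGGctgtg
H2-T23: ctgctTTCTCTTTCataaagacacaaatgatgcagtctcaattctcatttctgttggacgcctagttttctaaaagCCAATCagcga
H2-T22: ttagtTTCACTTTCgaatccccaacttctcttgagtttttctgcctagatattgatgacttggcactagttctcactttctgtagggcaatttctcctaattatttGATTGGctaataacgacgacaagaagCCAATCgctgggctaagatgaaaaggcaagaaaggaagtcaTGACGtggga
Tap1: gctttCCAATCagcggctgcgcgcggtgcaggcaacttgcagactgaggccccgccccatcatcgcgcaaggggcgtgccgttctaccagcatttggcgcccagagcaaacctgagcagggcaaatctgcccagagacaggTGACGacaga

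The kappaB-like core was found in 2 of the 7 windows, those of H2-K1 and H2-D1, and both held the letters GGGGATTCC. It lay in 5.72% of all 27025 promoter windows. In both genes it began 70 bases before a cyclic AMP response element core, and a match to the Y box letters followed 48 bases further on in H2-D1 and 49 in H2-K1. Between these matches both stretches also hold cattgg, unmarked because its first letter differs from the pattern. Which of them acts as a Y box was not tested. The interferon response element core was found in the windows of B2m, H2-T22 and H2-T23, 3 of 7, against 8.57% of all windows. The Y box core lay in 6 of 7 windows, against 16.6% of all, and the cyclic AMP response element core in 5 of 7, against 21%. Tapbp held none of these letters in its window. Tap1 and Psmb9, which encodes an immunoproteasome subunit, start 226 bases apart on opposite strands, so that their windows hold the same Y box and cyclic AMP response element letters. In B2m a further cyclic AMP response element core on the other strand, CGTCA at chr2:122147731-122147735, lies past the stretch printed. No matches overlapped in the stretches printed. Only these exact letters were searched, so a window without a match can still hold a variant of that element. A match describes letters and no binding was measured.

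Library totals ran from 23026619 to 60585587 counts. Levels are given as RPKM, counts per length of exon and per size of library, from library sizes scaled by the trimmed mean of M values (TMM). The sum of 5 B cell markers was 1942 to 6522 RPKM over the libraries, and the sum of 4 plasmablast markers was 10383 and 10600 in plasmablasts against at most 908 elsewhere. The 5 T cell markers summed to at most 1.69 RPKM in any library, the 4 NK cell markers to at most 9.30, and the 5 dendritic cell markers to between 2.22 and 30.6. In the naive libraries 6 myeloid markers summed to 406 and 162 RPKM, against at most 9.68 in every other library, and 3 erythroid markers to 235 and 172 RPKM, against at most 1.83. Lyz2, S100a8 and S100a9 led the myeloid sum in naive cells. The part of these cells in differences from the naive stage was not tested. When libraries were scaled by their totals alone, the median log2 change of all tested genes moved from -0.031 to -0.24 between naive and 3 h, from 0.018 to 0.35 between 3 and 10 h, from -0.046 to -0.38 between expanded B cells and plasmablasts, and from 0.023 to -0.26 between naive cells and plasmablasts. The share of calls that were rises moved with it, from 46.3% to 36.0%, from 56.5% to 77.4%, from 53.3% to 28.6% and from 53.1% to 41.3% in these comparisons.

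The classical heavy chains were among the most abundant transcripts at every stage, with ranks by mean RPKM from 21 to 101 for H2-K1 and from 34 to 102 for H2-D1 among the genes tested. H2-K1 (Entrez 14972, chr17:33996012-34000619) had 1270.0 and 1349 RPKM in the naive state, 2228 and 1935 after 3 h, 1224 and 1139 after 10 h, 699 and 626 after 33 h, 486 and 528 as expanded cells, and 1552 and 1560.0 as plasmablasts. No 2 neighbours in the order of its stage means overlapped, from 3 h at the top through plasmablasts, naive, 10 h and 33 h to expanded B cells. H2-D1 (Entrez 14964, chr17:35263094-35267497) had 1462 and 1480 RPKM in the naive state, 1605 and 1501 after 3 h, 951 and 902 after 10 h, 602 and 547 after 33 h, 500.2 and 513 as expanded cells, and 1199 and 1190.2 as plasmablasts. Both genes were lowest in expanded B cells, at 507 RPKM each on average, and their log2 levels had a Pearson r of 0.95 over the 12 libraries, which are 6 stages with 2 libraries each. The ratio of H2-K1 to H2-D1 within a library was 0.869 and 0.911 in the naive state, 1.39 and 1.29 after 3 h, 0.973 and 1.03 for expanded cells, and 1.30 and 1.31 for plasmablasts.

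The heavy chains H2-T22, H2-T23 and H2-T24 followed another course, with their lowest or nearly lowest levels after 3 h. This does not extend to all other class I genes: of 13 tested, 2 rose (H2-Q6 and H2-Q4) and 6 fell between naive cells and 3 h. H2-T24 (Entrez 15042, chr17:36003471-36020800) had 32.6 and 32.4 RPKM in the naive state, 0.920 and 1.20 after 3 h from 36 and 80 counts, 11.4 and 6.53 after 10 h, 17.1 and 12.7 after 33 h, 9.35 and 9.93 as expanded cells, and 37.4 and 41.5 as plasmablasts. Its highest stage mean was 37.2 times its lowest, whereas this ratio was between 2.39 (Nlrc5) and 4.25 (H2-T22) for the other 9 genes. H2-T22 (Entrez 15039, chr17:36037128-36042742) had 83.4 and 88.3 RPKM in the naive state, 25.6 and 22.99 after 3 h, 71.2 and 55.3 after 10 h, 79.8 and 71.9 after 33 h, 54.8 and 56.8 as expanded cells, and 101 and 106 as plasmablasts. H2-T23 (Entrez 15040, chr17:36029977-36032701) had 330 and 335 RPKM in the naive state, 103 and 82.2 after 3 h, 103 and 76.1 after 10 h, 136 and 108 after 33 h, 164 and 164 as expanded cells, and 355 and 363 as plasmablasts. The libraries overlapped between 10 h and expanded B cells for H2-T22 and H2-T24, and between 3 h and 10 h for H2-T23. H2-T22 and H2-T24 had a Pearson r of 0.98 over the 12 libraries, and H2-K1 and H2-T22 one of -0.27. H2-K1 and H2-D1 together made up 86.0% and 86.1% of the RPKM of the 5 heavy chains in the naive state, 96.7% and 97.0% after 3 h, and 81.2% and 81.8% as expanded cells.

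B2m (Entrez 12010, chr2:122147687-122153082), the light chain that every class I molecule shares, was the most abundant of the 10. It had 2729 and 2971 RPKM in the naive state, 2571 and 2559 after 3 h, 2501 and 2043 after 10 h, 1717 and 1521 after 33 h, 1395 and 1395 as expanded cells, and 4555 and 4650.5 as plasmablasts, where its mean ranked 10 among the 12750 genes tested. Plasmablasts stood above all other libraries, and no 2 stages next to each other in the order of means overlapped. The summed RPKM of the 5 heavy chains divided by that of B2m was 1.16 and 1.11 in the naive state, 1.54 and 1.38 after 3 h, 0.944 and 1.07 after 10 h, 0.893 and 0.898 after 33 h, 0.871 and 0.912 as expanded cells, and 0.712 and 0.701 as plasmablasts. This ratio was thus highest after 3 h and lowest as plasmablasts, with no overlap of either with another stage, and it is given as a description without a test.

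Tap1 (Entrez 21354, chr17:34187556-34197225) and Tap2 (Entrez 21355, chr17:34204479-34216321) encode the subunits of the peptide transporter. Tap1 had 148 and 156 RPKM in the naive state, 54.7 and 57.6 after 3 h, 136 and 107 after 10 h, 138 and 120 after 33 h, 111 and 110 as expanded cells, and 130 and 133 as plasmablasts. Tap2 had 73.4 and 69.1 RPKM in the naive state, 28.4 and 31.0 after 3 h, 49.2 and 44.7 after 10 h, 46.3 and 43.3 after 33 h, 55.3 and 56.1 as expanded cells, and 88.1 and 89.7 as plasmablasts. Both were lowest after 3 h, and the stages from 10 h onwards overlapped in part for Tap1. The ratio of Tap1 to Tap2 was 2.77 and 2.38 after 10 h, 2.98 and 2.77 after 33 h, and 1.48 and 1.48 as plasmablasts. Tapbp (Entrez 21356, chr17:33919478-33929290) had 201 and 204 RPKM in the naive state, 149 and 130 after 3 h, 261 and 207 after 10 h, 231 and 224 after 33 h, 160 and 166 as expanded cells, and 380 and 376 as plasmablasts, its highest stage.

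Nlrc5 (Entrez 434341, chr8:94434335-94527272) was the least abundant member at every stage but 3 h, where H2-T24 was lower. It had 5.55 and 5.57 RPKM in the naive state, 2.35 and 2.54 after 3 h, 6.79 and 4.16 after 10 h, 6.38 and 5.34 after 33 h, 4.17 and 4.51 as expanded cells, and 3.78 and 3.52 as plasmablasts. The libraries of 33 h, naive, 10 h and expanded B cells overlapped from neighbour to neighbour, and 3 h stood below all others. Its Pearson r over the 12 libraries was 0.85 with Tap1 and 0.38 with Tap2, 0.69 with H2-T22, 0.65 with H2-T24 and 0.18 with H2-T23, 0.32 with Tapbp, -0.27 with B2m, -0.42 with H2-D1 and -0.53 with H2-K1. Outside the members, tested genes among the most like Nlrc5 were Phf11 (r of 0.96) and Phf11a (0.95), and those most like H2-K1 were Necap1 (0.99), Tmcc1 (0.98) and N4bp1 (0.98).

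**Figure D1:**
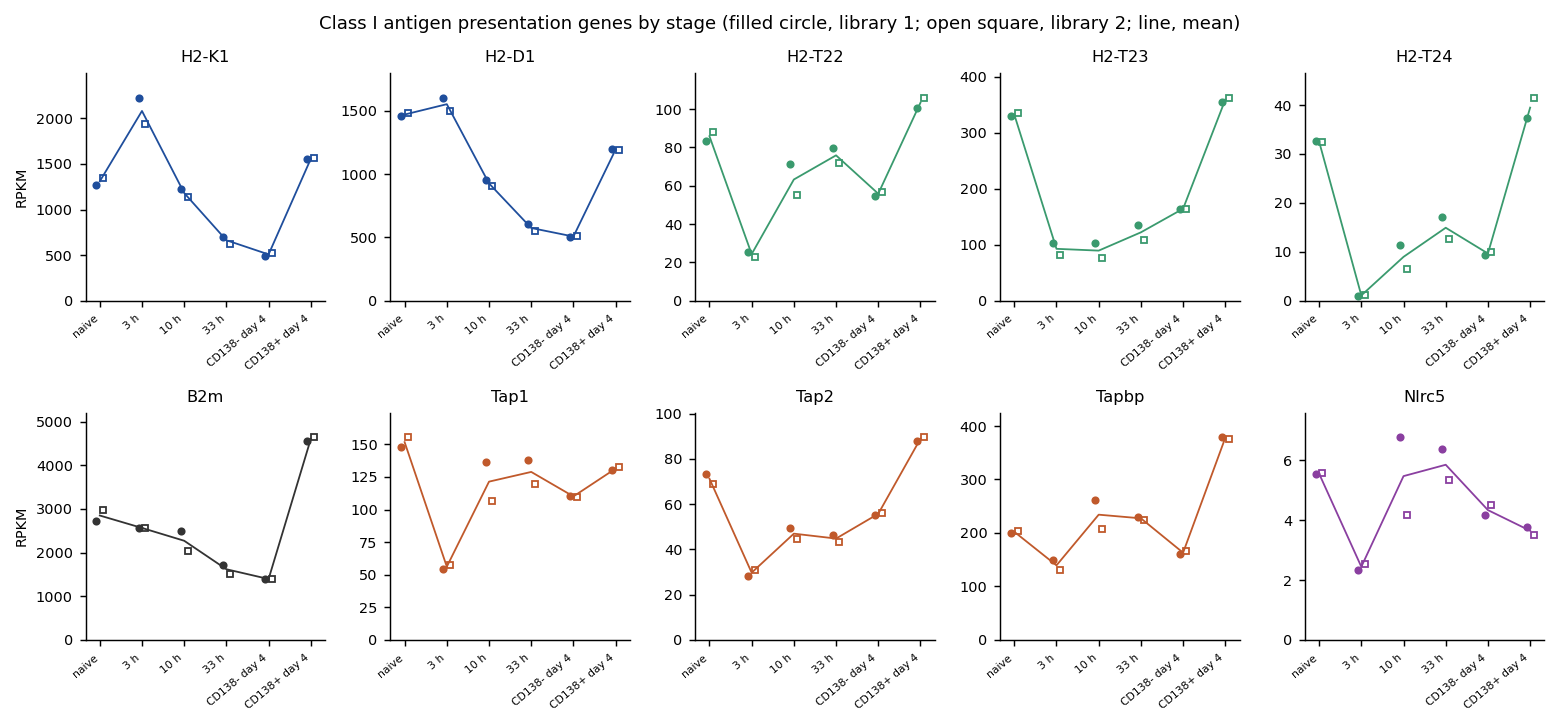
Levels of the 10 class I genes in RPKM (linear axes from 0, each with its own scale) at the 6 stages, with the 2 libraries of a stage as a filled circle and an open square and the line through their means. H2-K1 peaked at 3 h (2228 and 1935 RPKM), where H2-T24 was at 0.920 and 1.20.

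Between naive cells and 3 h of LPS, H2-T22, H2-T23, H2-T24, both TAP subunits and Nlrc5 fell, whereas the classical heavy chains, B2m and Tapbp were not called. In such bulk samples fewer cells with a transcript and less of it per cell cannot be told apart. Calls are from edgeR's glmTreat, which tests for a change of more than 1.5-fold, with Benjamini-Hochberg adjusted p below 0.05 over all 12750 genes. At this transition 24.3% of all tested genes fell and 21% rose. Of the 10 class I genes 6 fell and 0 rose. H2-T24 fell by 4.90 on the log2 scale (standard error, SE, 0.28, adjusted p = 4.02e-08), H2-T23 by 1.85 (SE 0.15, adjusted p = 1.80e-06) and H2-T22 by 1.82 (SE 0.12, adjusted p = 2.30e-07). Tap1 fell by 1.43 (SE 0.11, adjusted p = 2.61e-06), Tap2 by 1.26 (SE 0.09, adjusted p = 2.08e-06) and Nlrc5 by 1.18 (SE 0.19, adjusted p = 0.00238). H2-K1 had a log2 change of 0.67 (SE 0.09), with an adjusted p of 0.132 against 1.5-fold and of 2.08e-05 by the F-test for a change of any size. The log2 changes of H2-D1 (0.078), B2m (-0.15) and Tapbp (-0.54) were not called either. Without the 3 h library of replicate 2 the change of H2-K1 was 0.74 and was called, with an adjusted p of 0.0437, and with library size alone Tapbp was called as a fall (-0.75, adjusted p = 0.0382). The 6 falls were also called when either naive library was left out.

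Immunoproteasome subunits fell at 3 h while their standard counterparts rose. Of 15 genes of peptide supply 9 rose and 3 fell, with a median log2 change of 0.81 against -0.031 over all tested genes. The 3 that fell were the catalytic immunoproteasome subunits Psmb9 (-2.32, SE 0.15), Psmb8 (-1.89, SE 0.12) and Psmb10 (-1.003, SE 0.13). Their standard counterparts rose, namely Psmb6 (0.93, SE 0.08), Psmb5 (0.85, SE 0.10) and Psmb7 (0.87, SE 0.11), as did the proteasome activator Psme3 (1.796) and the cytosolic peptidase Thop1 (1.62). Psmb8 had 371 and 390 RPKM in naive cells and 89.7 and 115 at 3 h, and the ratio of Psmb8 to Psmb5 went from 5.85 and 5.59 to 0.799 and 0.897. The ratio of Psmb9 to Psmb6 went from 1.43 and 1.49 to 0.137 and 0.166, and that of Psmb10 to Psmb7 from 1.35 and 1.26 to 0.302 and 0.409. In plasmablasts these ratios were 1.86 and 1.89, 0.847 and 0.862, and 0.451 and 0.409, all below their naive values.

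**Figure D2:**
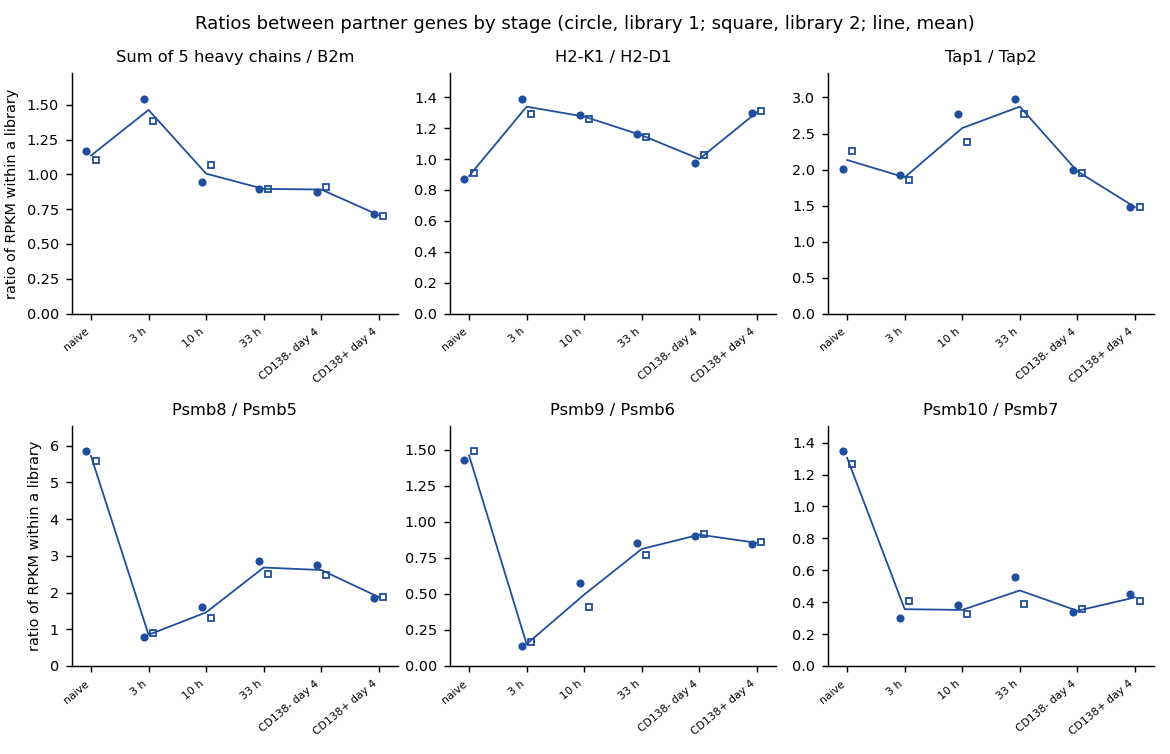
Ratios of RPKM between partner genes within each library (linear axes from 0) at the 6 stages, with the 2 libraries as circle and square and the line through their means. Each immunoproteasome subunit was lower relative to its standard counterpart at 3 h than in naive cells, Psmb8 over Psmb5 from 5.85 and 5.59 to 0.799 and 0.897.

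Of 13 other class I genes tested 2 rose and 6 fell at 3 h, with a median log2 change of -0.040. The rises were H2-Q6 (1.67, SE 0.15) and H2-Q4 (1.01, SE 0.19), whose libraries at 3 h were spread at 543 and 355 RPKM and at 221 and 125 RPKM. Fcgrt, the neonatal Fc receptor, fell from 40.1 and 43.3 RPKM to 0.962 and 2.44. Hfe, an iron regulator, had 66 and 43 counts in naive cells and 0 and 2 at 3 h, a ratio of 44.2 between the summed counts per library size, with a 95% exact binomial interval of 12.0 to 370 that covers counting error only. Of 9 genes of folding, translocation and loading 3 rose and 0 fell, with a list median of 0.029. Calnexin, Canx (1.61, SE 0.21), and the chaperone BiP, Hspa5 (1.42, SE 0.11), led the rises. The Canx libraries at 3 h were spread at 211 and 121 RPKM, against 55.9 and 52.4 in naive cells. Of 19 regulators 6 rose and 5 fell, with a median of 0.31. The subunit of NF-kappaB encoded by Nfkb1 rose by 2.53 (SE 0.08) and Prdm1, which encodes Blimp-1, by 1.502 (SE 0.31). The interferon signalling gene Stat2 fell by 2.80 (SE 0.20).

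Between 3 h and 10 h the directions crossed: H2-T22, H2-T24, Tap1 and Nlrc5 rose while H2-K1 and H2-D1 fell. At this transition 17.4% of all tested genes rose and 13.4% fell. Of the 10 class I genes 4 rose and 2 fell. H2-T24 rose by 3.05 on the log2 scale (SE 0.28, adjusted p = 8.62e-06), H2-T22 by 1.38 (SE 0.12, adjusted p = 1.69e-05), Tap1 by 1.11 (SE 0.11, adjusted p = 0.000255) and Nlrc5 by 1.16 (SE 0.18, adjusted p = 0.00447). H2-K1 fell by 0.82 (SE 0.09, adjusted p = 0.0117) and H2-D1 by 0.74 (SE 0.08, adjusted p = 0.0259). The log2 changes of Tapbp (0.75, adjusted p = 0.0625), Tap2 (0.66), B2m (-0.18) and H2-T23 (-0.048) were not called, and those of B2m and H2-T23 were 0.16 and 0.29 with library size alone. The calls of H2-K1 and H2-D1 were lost with library size alone (-0.48 and -0.41), without the 3 h library of replicate 1 (-0.71 and -0.69, adjusted p = 0.116 and 0.124) and without the 10 h library of replicate 2 (-0.76 and -0.70, adjusted p = 0.0776 and 0.127), and that of H2-D1 also with no filter on low counts (-0.73, adjusted p = 0.0658) and in a fit to the 4 libraries compared (-0.75, adjusted p = 0.0613). That of Nlrc5 was lost without the 10 h library of replicate 1 (0.77, adjusted p = 0.124), in which Nlrc5 was higher than in the other 10 h library. Tapbp was called without the 3 h library of replicate 1 (0.85), without the 10 h library of replicate 2 (0.91), without a filter (0.77), with 10 counts in every library (0.76) or with the removed genes kept (0.77), and with library size alone it (1.08) and Tap2 (0.99) were called.

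Psmb9 and Psmb8 of the immunoproteasome rose at this step too, whereas Psmb10 (0.34, SE 0.13) was not called. The ratio of Psmb10 to Psmb7 was 0.302 and 0.409 at 3 h and 0.379 and 0.323 at 10 h. Of 15 peptide supply genes 5 rose and 1 fell, with a median log2 change of 0.39 against 0.018 over all tested genes. Psmb9 rose by 2.08 (SE 0.15), the proteasome activator Psme2 by 1.45 (SE 0.11) and Psmb8 by 1.30 (SE 0.12), and the tripeptidyl peptidase Tpp2 fell by 0.99 (SE 0.10). Of 13 other class I genes 2 rose, Mr1 (1.86, SE 0.23), which presents vitamin B metabolites, and H2-T10 (1.07, SE 0.11), the closest relative of H2-T22 here, and 3 fell, among them Fcgrt (4 and 5 counts left at 10 h) and H2-Q6 (-1.21, SE 0.15), with a list median of -0.63. Of 9 genes of folding, translocation and loading 0 were called by glmTreat and 1 had an unadjusted p below 0.05 by it, with a median of -0.18. The F-test called 7 of them and DESeq2 6. Both lack a fold threshold, and the share of all tested genes that they called is not given. Of 19 regulators 4 rose and 4 fell, with a median of -0.14, with Prdm1 (1.65, SE 0.25) among the rises, and Nfkb1 (-1.52, SE 0.08) and Irf8 (-1.41, SE 0.09) led the falls.

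Between 10 h and 33 h, when 10.1% of tested genes rose and 4.45% fell, 0 of the 10 class I genes rose and 1 fell. H2-K1 fell by 0.83 (SE 0.09, adjusted p = 0.0168). H2-D1 had a log2 change of -0.69 (SE 0.08, adjusted p = 0.156) and B2m one of -0.49. The call of H2-K1 was lost without the 10 h library of replicate 1 (-0.77, adjusted p = 0.114), without the 33 h library of replicate 2 (-0.75, adjusted p = 0.120) and in a fit to the 4 libraries compared (-0.80, adjusted p = 0.0625). Without the 33 h library of replicate 1 H2-D1 was called as well (-0.76, adjusted p = 0.0479), as it was with library size alone (-0.75, adjusted p = 0.0412), and without the 10 h library of replicate 1 H2-T24 was called as a rise (1.20, adjusted p = 0.00764). Of 13 other class I genes 3 fell, including H2-Q6 (-1.59, SE 0.15) and H2-Q7 (-1.35, SE 0.10), which encodes Qa-2, and Fcgrt rose from 4 and 5 counts to 81 and 29, with a list median of -0.72 against -0.024 over all tested genes. Of 15 peptide supply genes Psme2 fell (-1.30, SE 0.10) and 0 rose, with a median of -0.093. Of 9 genes of folding, translocation and loading calreticulin, Calr, rose (0.82, SE 0.11) and Tapbpl, a relative of tapasin, fell (-0.90, SE 0.08), with a median of 0.36, and of 19 regulators Ezh2 rose (1.67, SE 0.13), with a median of -0.0088.

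From 33 h to expanded B cells on day 4, when 6.94% of tested genes rose and 3.66% fell, 0 of the 10 class I genes were called by glmTreat, and 0 had an unadjusted p below 0.05 against 1.5-fold. The F-test of edgeR for a change of any size called 6, with 9 at an unadjusted p below 0.05, and the Wald test of DESeq2 called 6. The shares of all tested genes above are those of glmTreat. None is given for the F-test or DESeq2, which have no fold threshold, so their counts cannot be read against a share. The log2 changes ran from -0.63 (H2-T24) to 0.43 (H2-T23). Of 13 other class I genes H2-Q7 fell (-1.06, SE 0.10), with a list median of -0.12, and of 15 peptide supply genes 0 were called or had an unadjusted p below 0.05 by glmTreat, and the F-test and DESeq2 each called 6, with a median of -0.048. Of 9 genes of folding, translocation and loading the translocon subunit Sec61b rose (1.18, SE 0.10), with a median of 0.50. Of 19 regulators Prdm1 rose (2.38, SE 0.23) and 3 fell, among them Irf9 (-1.74, SE 0.22) and Socs1 (-1.17, SE 0.24), with a median of -0.21 against -0.022 over all tested genes.

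From expanded B cells to plasmablasts all 5 heavy chains, B2m and Tapbp rose. Of all tested genes 13.9% rose and 12.2% fell, and of the 10 class I genes 7 rose and 0 fell. H2-T24 rose by 2.03 on the log2 scale (SE 0.22, adjusted p = 6.17e-05), B2m by 1.72 (SE 0.10, adjusted p = 2.49e-07) and H2-K1 by 1.62 (SE 0.09, adjusted p = 2.97e-07). H2-D1 rose by 1.24 (SE 0.08, adjusted p = 2.29e-06), Tapbp by 1.21 (SE 0.10, adjusted p = 4.49e-05), H2-T23 by 1.13 (SE 0.14, adjusted p = 0.00157) and H2-T22 by 0.89 (SE 0.11, adjusted p = 0.0109). The peptide transporter and the transactivator were not called, with log2 changes of 0.67 for Tap2 (adjusted p = 0.169), 0.26 for Tap1 and -0.25 for Nlrc5, and that of Tap1 was -0.083 with library size alone. With that scaling the calls of H2-T22 (0.55) and H2-T23 (0.79) were lost, and that of H2-T22 also without the expanded library of replicate 1 (0.86, adjusted p = 0.0626). In a fit to the 4 libraries compared Tap2 was called as a rise (0.70, adjusted p = 0.0175).

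**Figure D3:**
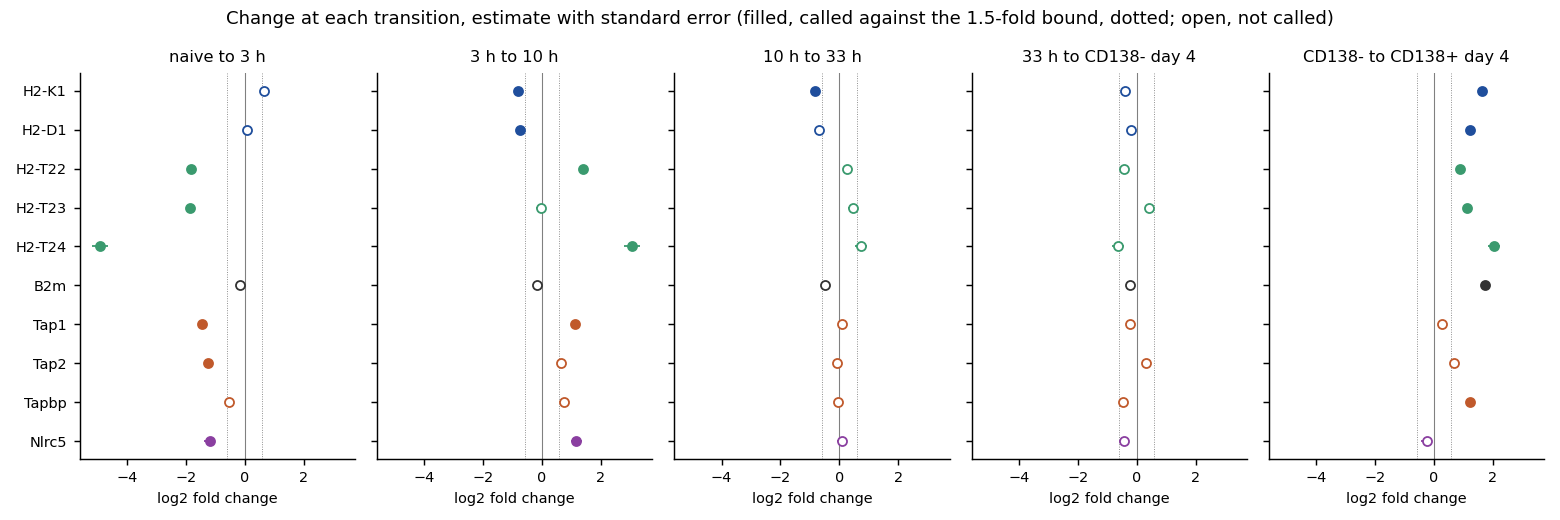
Log2 fold change of the 10 class I genes at the 5 consecutive transitions, with standard errors, filled where glmTreat called a change beyond 1.5-fold (dotted lines) and open where it did not. Filled points on the left at 3 h are H2-T22, H2-T23, H2-T24, Tap1, Tap2 and Nlrc5, and 7 filled points on the right mark plasmablasts.

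Of the 9 genes of folding, translocation and loading 8 rose at the same step, with 0 falling and a median log2 change of 1.45 against -0.046 over all tested genes. Sec61b rose by 1.99 (SE 0.10) and Calr by 1.67 (SE 0.11), and calnexin, Canx, had a change of 0.21 (SE 0.20) that was not called. Calr had 885 and 951 RPKM among expanded cells and 2866 and 2988 among plasmablasts, and Tapbpl, which also rose (1.41, SE 0.08), 23.9 and 25.4 against 63.3 and 68.1. Of 15 peptide supply genes 0 rose and 1 fell, the aminopeptidase Lnpep (-1.31, SE 0.17), with a median of -0.0020. Psmb8 had 408 and 378 RPKM among expanded cells and 331 and 351 among plasmablasts. Of 13 other class I genes 5 rose and 1 fell, with a median of 0.70. H2-Q7 rose by 2.36 (SE 0.10) and Cd1d1, which presents lipids, by 1.97 (SE 0.22), and Fcgrt, with 79 and 42 counts among expanded cells and 0 and 0 among plasmablasts, was at least 28.6-fold lower against a floor of 3 counts over both libraries. Of 19 regulators 2 rose, Prdm1 (1.26, SE 0.21) and Irf1 (1.23, SE 0.14), and 4 fell, led by Irf8 (-1.40, SE 0.09) and Nfkb1 (-1.39, SE 0.08), with a median of -0.13.

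Set against naive cells, 5 class I genes were lower in expanded B cells, whereas 1 was called, as a rise, in plasmablasts. Both comparisons use the same naive libraries, and their values are given side by side. From naive to expanded B cells 22.2% of all tested genes fell and 24.9% rose, and of the 10 class I genes 5 fell and 0 rose, namely H2-T24 (-1.76, SE 0.22), H2-D1 (-1.54, SE 0.08), H2-K1 (-1.37, SE 0.09), B2m (-1.03, SE 0.10) and H2-T23 (-1.02, SE 0.14). Their log2 changes from naive cells to plasmablasts were 0.28, -0.30, 0.25, 0.69 and 0.11, and none of the 5 was called. From naive cells to plasmablasts 26.6% of all tested genes rose and 23.4% fell, and of the 10 class I genes 1 rose, Tapbp (0.90, SE 0.10, adjusted p = 0.00246), and 0 fell. The call of Tapbp was lost with library size alone (0.62, adjusted p = 0.269), under which H2-K1, H2-T22, H2-T23 and H2-T24 had changes of -0.035, -0.017, -0.17 and -0.0060 and Nlrc5 was called as a fall (-0.89, adjusted p = 0.0353). The 10 genes took 0.780% and 0.797% of the counts of naive libraries, 0.394% and 0.402% of those of expanded cells, and 0.801% and 0.793% of those of plasmablasts.

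Class II genes, which present peptides from outside the cell to CD4+ T cells, are given for comparison, and the difference between the lists was not tested. Of 11 class II genes 0 rose and 6 fell between naive and 3 h, led by their transactivator Ciita (-2.55, SE 0.23) and by H2-Oa (-1.99, SE 0.21), with a median log2 change of -0.98. Of all tested genes 21% rose and 24.3% fell, with a median of -0.031. Between 3 h and 10 h 0 class II genes rose and 10 fell, with a median of -2.40, and H2-Aa fell by 3.55 (SE 0.14) and H2-Ab1 by 3.41 (SE 0.12). At that step 17.4% of all tested genes rose and 13.4% fell, with a median of 0.018. Between 10 h and 33 h 9 class II genes rose and 0 fell, with a median of 1.18, led by H2-DMb1 (1.56, SE 0.12) and H2-Oa (1.37, SE 0.21). Over all tested genes 10.1% rose and 4.45% fell, with a median of -0.024. From 33 h to expanded B cells 0 class II genes were called or had an unadjusted p below 0.05 by glmTreat, with a median of -0.17. By the same test 6.94% of all tested genes rose and 3.66% fell. The F-test called 2 class II genes and DESeq2 3, both without a fold threshold and without a share of all genes given here. From expanded B cells to plasmablasts 0 class II genes rose and 6 fell, with a median of -1.29, against 7 rises among the 10 class I genes. Here 13.9% of all tested genes rose and 12.2% fell, with a median of -0.046. Ciita had 30.5 and 25.8 RPKM among expanded cells and 0.900 and 0.743 among plasmablasts, a fall of 5.11 on the log2 scale (SE 0.28), and H2-Oa fell by 4.43 (SE 0.30). All 11 class II genes fell between naive cells and plasmablasts, against 23.4% of all tested genes. The class II median was -3.42, against 0.26 for the class I genes.

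**Figure D4:**
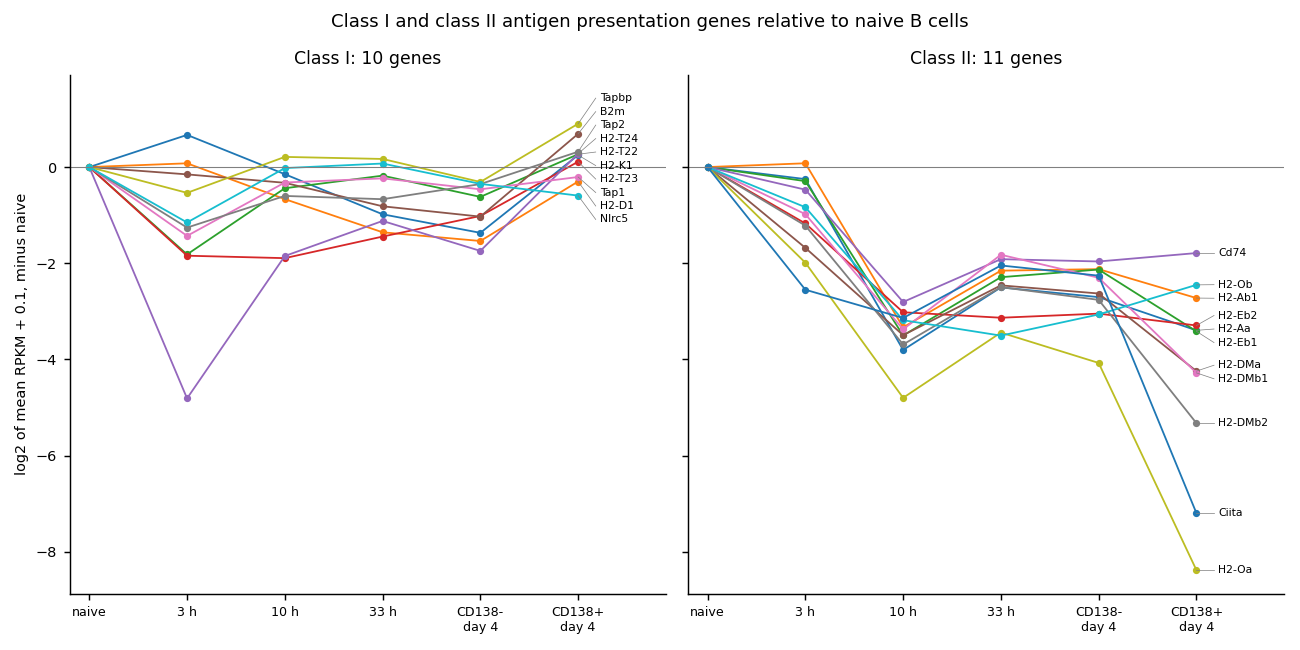
Log2 of the stage mean of RPKM with 0.1 added, relative to naive cells, for the 10 class I genes and the 11 class II genes, with 1 line per gene. In plasmablasts the class I genes end on both sides of the naive level, and every class II gene ends below it.

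Some of these genes share sequence with relatives. Of the 81-base windows of the longest coding transcript of H2-T22, 22.6% also occurred in transcripts of other genes, 17% in those of H2-T10, and 16.6% did so for Tapbp, mostly with Gm19412, 11.4% for H2-T23, 8.09% for Tap2, 6.33% for H2-D1 and 4.59% for Tap1, all of the last with Psmb9. For H2-K1 and H2-T24 the share was 0.78% and 0.19%, and for B2m and Nlrc5 it was 0%. For H2-Q4, H2-Q6, H2-Q7 and H2-T10 it was 18.6% to 20%. How the counting treated reads that fit several places, and whether it used strand, is not given in the sources used here. The values of H2-T22, Tapbp, H2-T23, H2-Q4, H2-Q6, H2-Q7 and H2-T10 therefore carry this uncertainty.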

How the data were processed

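RNA-seq covered 12 libraries, 2 for each of 6 stages. The authors prepared TruSeq libraries from polyA RNA and sequenced 81-base read pairs on a NextSeq 500, with CASAVA 1.8.2 and featureCounts named in the submitters' processing notes. Reads were aligned to mm10 with Rsubread, and the deposited values are counts per Entrez gene with exon length, without normalization. The 12 files of single libraries equalled the table. Symbols and coordinates came from RefSeq GRCm38.p6. Genes without annotation (1904), on X or Y (1279), mitochondrial (15), of rRNA (33) and variable immunoglobulin segments (248) were removed, which left 23700, and edgeR's filterByExpr kept 12750.

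All 12 libraries entered a one-way layout in edgeR 4.0.16 (R 4.3.3) with TMM scaling, robust dispersions and the earlier quasi-likelihood method. Stages were compared with glmTreat against 1.5-fold at a Benjamini-Hochberg adjusted p of 0.05 over all genes tested. Likeness used log2(RPKM + 0.1). The steps were tested on simulated data. The genes and lists were chosen with earlier results of these data known, and lists of pathway genes are described by all calls and, by name, the 2 largest called rises and falls per transition, besides the proteasome subunits. A gene that these rules would name is not reported here. A gene was set to at least 3 counts over both libraries where a stage was at the floor, which covers counting error only. The ratio of 44.2 for Hfe used its counts as they stood, and with this floor at 3 h it was 29.5. Tested alternatives were DESeq2 1.42.0, other scaling, filters and dispersions, a replicate term, fewer libraries and keeping the removed genes. Replicate differences did not show that the replicate numbers pair the samples: their correlation between compared stages ran from -0.14 to 0.08. This cannot exclude a pairing. The protein sequences of these genes were not used here.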

Additional observations from a re-analysis of the deposited data

How the results depend on the processing

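Counts of class I genes called kept within 1.5 times of those reported, except as follows. From 10 h to 33 h the count of 1 became 6 with the Wald test of DESeq2, 5 with the F-test without a fold threshold, 2 with library size alone, 0 in a fit to the 4 libraries compared, and 0 to 2 when a library was left out. The Wald test and the F-test each called 6 in place of 0 from 33 h to expanded B cells, 9 in place of 5 from naive to expanded B cells and 7 in place of 1 from naive cells to plasmablasts, and both have no fold threshold. The shares of all tested genes that they called are not given here, so these counts cannot be read against them. With a replicate block the counts were 6, 6, 1, 0 and 7 at the 5 transitions in order, 5 from naive to expanded B cells and 1 from naive cells to plasmablasts, so that it changed no count. The block with the numbers of the 3 h libraries exchanged, added after the data were seen because replicate differences at 3 h and 10 h correlated at -0.14, called 6 from 3 h to 10 h.

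With library size alone, changes that were not called changed sign for H2-D1 from naive to 3 h (-0.13), for H2-T23 (0.29) and B2m (0.16) from 3 h to 10 h, for Tap1 from expanded B cells to plasmablasts (-0.083), and for H2-K1 (-0.035), H2-T22 (-0.017), H2-T23 (-0.17) and H2-T24 (-0.0060) from naive cells to plasmablasts. When a library was left out, other changes that were not called also crossed 0, with ranges of -0.28 to 0.16 for H2-T23 from 3 h to 10 h, and from 10 h to 33 h -0.078 to 0.28 for Tap1, -0.13 to 0.010 for Tap2, -0.20 to 0.14 for Tapbp and -0.21 to 0.50 for Nlrc5. The cause was not tested. The heavy chain to B2m ratio ran from 0.598 to 1.42 over the stage means with H2-K1 and H2-D1 alone and from 0.761 to 1.77 with all class I heavy chains. Of the changes of single genes under all alternatives, 951 kept their direction and side of the threshold, 67 gained a call, 16 lost it and 16 changed sign, and of the levels and ratios 143 stayed within 1 SD and 49 did not. Leaving out a library from a stage of 2 assumes that the lone one varies like the others. At 3 h the level of H2-T24 rests on 36 and 80 counts.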
